A study of Canis lupus familiaris with 15 samples.

Results

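The results concern DEPTOR and 7 other genes of the mTOR complexes and their nearest regulators: MTOR, MLST8, RPTOR, RICTOR, TSC1, TSC2 and DDIT4. They are 8 of the genes named on a canine expression array, and every probe set whose platform annotation gives 1 of these symbols was taken, 22 of 43035 in all. DEPTOR was chosen by its log2 level under MEK inhibitors against hepatocyte growth factor (HGF) alone, so all its values are a description without a test. The others were added for their place in the complexes, with earlier results of these arrays known. The cells were MDCK (Madin-Darby canine kidney), an epithelial line from a dog, kept for 7 days on Transwell filters, and their RNA was measured on 15 Affymetrix arrays. The HGF + UO group (n = 3) had HGF at 100 ng/ml for 24 h together with a compound spelled UO126 at 10 uM. The HGF + PD group (n = 4) had the same HGF and, at 50 uM, PD09859 as the labels write it. The HGF group (n = 4) had HGF alone and the Control group (n = 4) medium only. These compounds are taken to be U0126 and PD98059, which inhibit MEK. All cells were fed MEM with 5% FBS. The sources used here do not name a vehicle. No arrays of a compound without HGF were analysed here.

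The kinase mTOR is the catalytic core of 2 complexes. In mTORC1 it is joined by RPTOR, which recruits substrates, and drives protein synthesis and growth when amino acids and growth factors are present. In mTORC2 it is joined by RICTOR and phosphorylates AKT, SGK1 and PKC kinases. MLST8 is a subunit of both, and DEPTOR binds mTOR in both and inhibits its activity. TSC1 and TSC2 form the complex that turns off RHEB, the activator of mTORC1, and DDIT4 (REDD1) acts through TSC1 and TSC2 to lower mTORC1 activity under stress. ERK and its downstream kinase RSK phosphorylate TSC2 and RPTOR, and loss of TSC1 or TSC2 leads to cysts and tumours of the kidney.

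A measurement here is the log2 of the authors' GCRMA intensity of a probe set, a group of short probes for 1 transcript. Each group value is a mean ± SD over arrays. Each difference is the first group named minus the second on the log2 scale, ± the standard error (SE) of a limma fit over all 15 arrays. A probe set was kept for testing when it reached a log2 intensity of 4 on at least 3 arrays, and called when its Benjamini-Hochberg adjusted p over all 24904 probe sets kept was below 0.05. Probe sets of a gene are numbered by falling mean intensity, and levels are not compared between probe sets. Of the 22, 12 were kept: 2 of 2 for DEPTOR, 3 of 7 for MTOR, 1 of 2 for MLST8, 0 of 1 for RPTOR, 1 of 2 for RICTOR, 1 of 4 for TSC1, 2 of 2 for TSC2 and 2 of 2 for DDIT4. The 3 comparisons with the HGF arrays share those arrays and are not independent of each other. In bulk RNA, fewer cells with a transcript and less of it per cell cannot be told apart.

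Median intensity lay between 40.4 and 42.6 on all 15 arrays. The log2 ratio of the 3' to the 5' beta-actin control moved with the HGF group, at 1.38 to 1.56 on the HGF arrays and 2.17 to 2.29 on the Control arrays (2.08 to 2.23 with PD and 2.11 to 2.19 with UO). Its part in the results was not tested. Of the epithelial markers, 7 of 7 with a probe set passed the filter, among them CDH16 (7.29 to 10.93) and KRT8 (14.23 to 15.19). Their summed intensity was 80910 to 88741 with UO, 74713 to 95390 with PD, 74771 to 91152 on HGF and 104562 to 114669 on Control arrays. Markers of other cells passed in 3 of 7 for fibroblasts, 3 of 5 for endothelium and 2 of 5 for leukocytes. PECAM1, CDH5 and KDR were among those that passed, and COL1A1, COL1A2, DCN, VWF, PTPRC and ITGAM among those that did not. The summed intensity of fibroblast markers was 227 to 249 with UO, 224 to 230 with PD, 228 to 239 on HGF and 227 to 260 on Control arrays. That of endothelial markers was 421 to 464 with UO, 417 to 467 with PD, 455 to 518 on HGF and 449 to 490 on Control arrays. For leukocyte markers it was 101 to 108 with UO, 97.2 to 104 with PD, 101 to 106 on HGF and 109 to 114 on Control arrays. The part of these markers in the results was not tested.

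DEPTOR, the inhibitor bound to mTOR itself, stood far lower on the HGF arrays than on the other 11. Probe set 1 (CfaAffx.2242.1.S1_at) read 4.21, 5.12, 5.28 and 4.67 on the HGF arrays, against 9.30, 9.24, 9.18 and 8.65 on the Control arrays. No HGF array came within 3 log2 units of a Control array. The difference of -4.28 ± 0.20 is 19.4-fold lower on the deposited scale. Intensities averaged 29.3 ± 9.15 on HGF and 555.1 ± 103.5 on Control arrays (SD, n = 4 and 4). The HGF readings lie just above the filter level, and with 16 added to every intensity before the log the difference was -3.66.

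With an inhibitor added to HGF, DEPTOR was at or above its Control level. Probe set 1 read 9.55, 9.47, 9.59 and 9.34 on the HGF + PD arrays and 9.51, 9.24 and 9.43 on the HGF + UO arrays. Against HGF alone the difference was 4.67 ± 0.20 with PD and 4.57 ± 0.21 with UO, each without overlap. Against Control it was 0.39 ± 0.20 with PD and 0.29 ± 0.21 with UO. Every HGF + PD array was above every Control array, by a margin of under 0.1 log2 units at the closest pair, while the HGF + UO and Control arrays overlapped. Without Control replicate 4, the lowest of its group, these differences from Control were 0.25 with PD and 0.15 with UO.

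The order of the DEPTOR levels by group mean was HGF (4.82 ± 0.48), Control (9.10 ± 0.30), HGF + UO (9.39 ± 0.14) and HGF + PD (9.49 ± 0.11). Of the neighbours in that order, HGF and Control did not overlap, whereas Control and HGF + UO, and HGF + UO and HGF + PD, did. The 2 compounds were given at different doses, so their values are set side by side only. Spread was wider on the HGF arrays, where the level is lowest.

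DEPTOR probe set 2 (CfaAffx.2250.1.S1_s_at) gave the same order of groups with a smaller range. An _s_at probe set holds probes shared by several transcripts. It read 4.59, 4.96, 5.40 and 5.43 on HGF arrays, against 7.76, 7.65, 7.53 and 7.23 on Control arrays, a difference of -2.44 ± 0.17 (5.44-fold). On the inhibitor arrays it read 7.85, 7.69 and 7.81 with UO and 8.16, 8.13, 7.90 and 7.70 with PD. Relative to HGF these are differences of 2.69 ± 0.19 and 2.88 ± 0.17, and relative to Control 0.24 ± 0.19 and 0.43 ± 0.17. Without Control replicate 4 the differences from Control were 0.14 with UO and 0.33 with PD. The HGF arrays again stood apart from all others, and both inhibitor groups overlapped Control. The array that was lowest among the HGF arrays was replicate 1 on both probe sets, and replicate 4 was the lowest of the Control arrays on both.

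**Figure D1:**
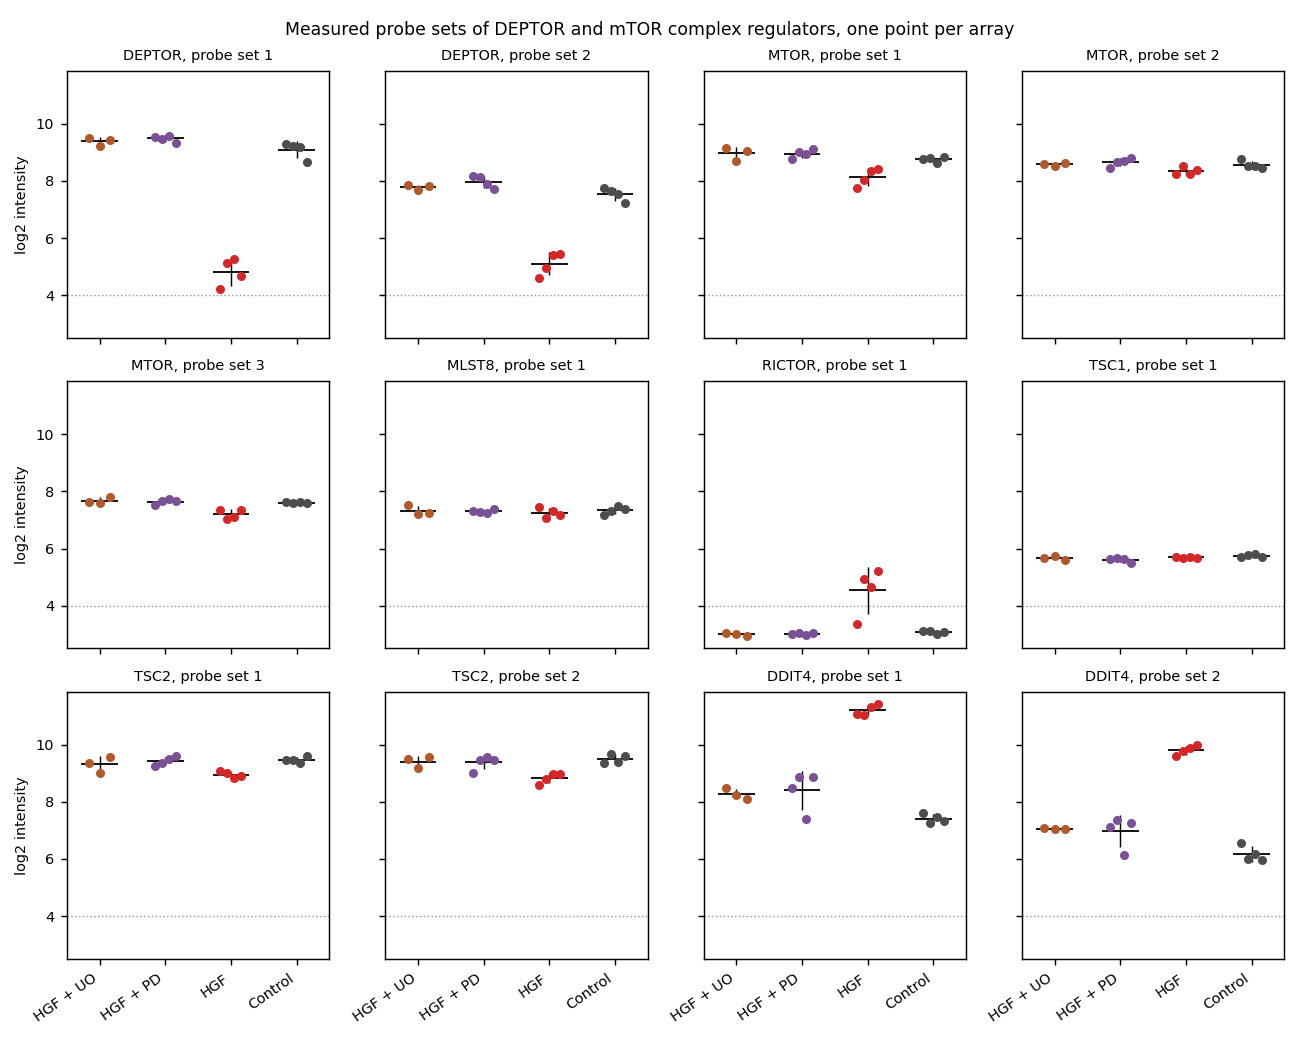
Log2 intensity (vertical axis) of the 12 kept probe sets in each group, with 1 point per array, a horizontal bar at the group mean, a vertical line of ± 1 SD and a dotted line at the filter level of 4. The HGF arrays sit at 4.21 to 5.28 for DEPTOR probe set 1 and at 11.05 to 11.44 for DDIT4 probe set 1, apart from every other group in both. The kept probe sets of MLST8 and TSC1 stay level, and whether the TSC1 readings are a floor was not tested.

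DDIT4, the stress-induced repressor of mTORC1, moved opposite to DEPTOR and is the member with the widest tested change. Probe set 2 (CfaAffx.22274.1.S1_at) read 9.59, 9.77, 9.89 and 9.98 on HGF arrays, against 6.56, 5.99, 6.18 and 5.97 on Control arrays. The groups lay about 3 log2 units apart at their closest. DDIT4 rose with HGF by 3.63 ± 0.21, or 12.4-fold (limma, adjusted p = 2.83e-09). Probe set 1 (CfaAffx.22274.1.S1_x_at) belongs to the same design sequence and carries the suffix _x_at, for probes that may also bind other transcripts. It read 11.10, 11.05, 11.31 and 11.44 on HGF arrays, against 7.61, 7.25, 7.48 and 7.32 on Control arrays. Its rise was 3.81 ± 0.25 (limma, adjusted p = 7.89e-09).

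Both inhibitor groups had less DDIT4 than HGF alone but more than Control. On probe set 2 the HGF + UO arrays read 7.10, 7.05 and 7.04 and the HGF + PD arrays 7.14, 7.36, 6.16 and 7.25. DDIT4 fell by 2.75 ± 0.23 with UO (limma, adjusted p = 1.52e-07) and by 2.83 ± 0.21 with PD (limma, adjusted p = 3.97e-08), both relative to HGF. Against Control it was higher by 0.89 ± 0.23 with UO (limma, adjusted p = 0.0133) and by 0.80 ± 0.21 with PD (limma, adjusted p = 0.0102). All 3 HGF + UO arrays were above all Control arrays, whereas HGF + PD replicate 3 lay within the Control range. Without that array the difference between HGF + PD and Control was 1.07.

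DDIT4 probe set 1 gave similar sizes. It read 8.48, 8.24 and 8.12 with UO and 8.50, 8.86, 7.42 and 8.86 with PD, with replicate 3 again at the Control level. Relative to HGF it fell by 2.94 ± 0.27 with UO and by 2.82 ± 0.25 with PD (limma, adjusted p = 3.34e-07 and 2e-07). Relative to Control it was higher by 0.87 ± 0.27 with UO (limma, adjusted p = 0.0316) and by 0.99 ± 0.25 with PD (limma, adjusted p = 0.00632). The UO call on this probe set was lost without a filter (adjusted p = 0.0582) and in 6 of the 15 fits that leave out 1 array, with adjusted p up to 0.113. Without HGF + PD replicate 3 the PD difference from Control was 1.33.

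MTOR, the kinase of both complexes, fell with HGF. Probe set 1 (Cfa.10547.1.A1_at) read 7.75, 8.04, 8.36 and 8.44 on HGF arrays, against 8.77, 8.80, 8.64 and 8.82 on Control arrays. Each HGF array was below each Control array. The fall was 0.61 ± 0.14 on the log2 scale (limma, adjusted p = 0.00158). The inhibitor arrays read 9.15, 8.70 and 9.03 with UO and 8.77, 9.00, 8.95 and 9.11 with PD. MTOR rose by 0.82 ± 0.15 with UO and 0.81 ± 0.14 with PD relative to HGF (limma, adjusted p = 0.000311 and 0.000148). The differences from Control were 0.20 ± 0.15 with UO and 0.20 ± 0.14 with PD, and neither passed (limma, adjusted p = 0.395 and 0.286).

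Other MTOR probe sets gave smaller differences in the same direction. Probe set 3 (CfaAffx.25506.1.S1_s_at) read 7.36, 7.04, 7.11 and 7.34 on HGF and 7.62, 7.59, 7.61 and 7.59 on Control arrays, a fall by 0.39 ± 0.08 (limma, adjusted p = 0.000666). It rose by 0.46 ± 0.09 with UO and by 0.43 ± 0.08 with PD relative to HGF. Probe set 2 (CfaAffx.25506.1.S1_at), from the same design sequence, read 8.24, 8.51, 8.26 and 8.37 on HGF and 8.75, 8.52, 8.53 and 8.44 on Control arrays, which overlap. Its change of -0.22 ± 0.09 passed narrowly (limma, adjusted p = 0.0450). That call was lost in 11 of the 15 fits that leave out 1 array and after subtraction of array medians (adjusted p = 0.0737). Its difference of 0.24 ± 0.09 with UO relative to HGF was as fragile (limma, adjusted p = 0.0436, lost in 10 of 15), while that of 0.31 ± 0.09 with PD passed in all 15 (0.00194 to 0.0247).

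MLST8, the subunit shared by both complexes, was level across groups on its kept probe set. It read 7.45, 7.07, 7.33 and 7.18 on HGF arrays and 7.16, 7.33, 7.49 and 7.40 on Control arrays. The difference was -0.09 ± 0.09 with a 95% interval of -0.29 to 0.12 (limma, adjusted p = 0.468). The readings were 7.52, 7.21 and 7.26 with UO and 7.33, 7.26, 7.26 and 7.37 with PD, and the 4 groups overlapped. Relative to HGF the intervals were -0.15 to 0.29 with UO and -0.15 to 0.25 with PD. A change beyond about 0.3 either way therefore lies outside these intervals.

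The subunits that tell the complexes apart were poorly read by this array. The 1 RPTOR probe set stayed between 2.39 and 2.81 on all 15 arrays, below the filter, so no statement on RPTOR is possible. RICTOR probe set 1 (CfaAffx.28487.1.S1_s_at) read 3.37, 4.92, 4.65 and 5.22 on HGF arrays, against 3.10, 3.11, 3.01 and 3.06 on Control arrays. It was kept only through 3 of the 4 HGF arrays, so a difference was built into its selection. On the inhibitor arrays it read 3.04, 3.01 and 2.93 with UO and 3.00, 3.05, 2.98 and 3.04 with PD, all below the filter. No size is given for the difference, since every array outside the HGF group lay below the filter level. HGF replicate 1 was the HGF array nearest to the other groups.

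The other RICTOR probe set (Cfa.472.1.S1_s_at) never reached the filter level. It read 3.95, 3.80, 3.53 and 3.87 on HGF arrays, against 3.14, 3.13, 3.22 and 3.12 on Control arrays. The inhibitor arrays lay at 2.95 to 3.15 with UO and at 2.95 to 3.10 with PD. The HGF arrays were the highest, but every reading lay below the filter level, so no statement on a difference is made.

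TSC2, the subunit of the TSC complex that acts on RHEB, fell with HGF on both probe sets. Probe set 2 (Cfa.10867.1.A1_at) read 8.60, 8.80, 8.99 and 8.99 on HGF arrays, against 9.37, 9.67, 9.41 and 9.62 on Control arrays. The fall was 0.67 ± 0.13 (limma, adjusted p = 0.000461). Probe set 1 (CfaAffx.29719.1.S1_s_at) read 9.08, 9.00, 8.83 and 8.90 on HGF arrays, against 9.47, 9.45, 9.35 and 9.61 on Control arrays, a fall by 0.52 ± 0.11 (limma, adjusted p = 0.000933). Neither probe set overlapped between these groups.

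With an inhibitor TSC2 stood near Control. Probe set 2 read 9.50, 9.18 and 9.56 with UO and 9.02, 9.47, 9.58 and 9.46 with PD. It rose by 0.57 ± 0.14 with UO and by 0.54 ± 0.13 with PD relative to HGF (limma, adjusted p = 0.00328 and 0.00258). Probe set 1 read 9.37, 9.02 and 9.57 with UO and 9.27, 9.37, 9.51 and 9.61 with PD, and rose by 0.37 ± 0.12 and 0.49 ± 0.11 (limma, adjusted p = 0.0171 and 0.00149). The UO rise on probe set 1 was lost in a fit of the HGF + UO and HGF arrays alone (adjusted p = 0.0532), without HGF + UO replicate 1 (adjusted p = 0.0574) and without HGF + UO replicate 3 (adjusted p = 0.111). None of the 4 differences from Control passed.

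TSC1, the partner that stabilises TSC2, had no called difference on its kept probe set in the main fit. Its kept probe set (CfaAffx.30430.1.S1_at) read 5.72, 5.68, 5.69 and 5.68 on HGF arrays, against 5.69, 5.78, 5.82 and 5.71 on Control arrays. The difference was -0.06 ± 0.05 with a 95% interval of -0.17 to 0.05 (limma, adjusted p = 0.367). The inhibitor arrays read 5.68, 5.74 and 5.58 with UO and 5.63, 5.67, 5.63 and 5.50 with PD. All 15 arrays thus lay between 5.50 and 5.82, and the other TSC1 probe sets stayed below the filter level. Whether these flat readings are the floor of the kept probe set was not tested. The difference between HGF + PD and Control was -0.14 ± 0.05 and missed the threshold (limma, adjusted p = 0.0526), although the arrays did not overlap. It passed without Control replicate 1 (adjusted p = 0.0450), without HGF + PD replicate 2 (adjusted p = 0.0422), without HGF + UO replicate 2 or 3 (adjusted p = 0.0400 and 0.0450), without a variance trend (adjusted p = 0.0448) and with 16 added to each intensity (adjusted p = 0.0467).

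**Figure D2:**
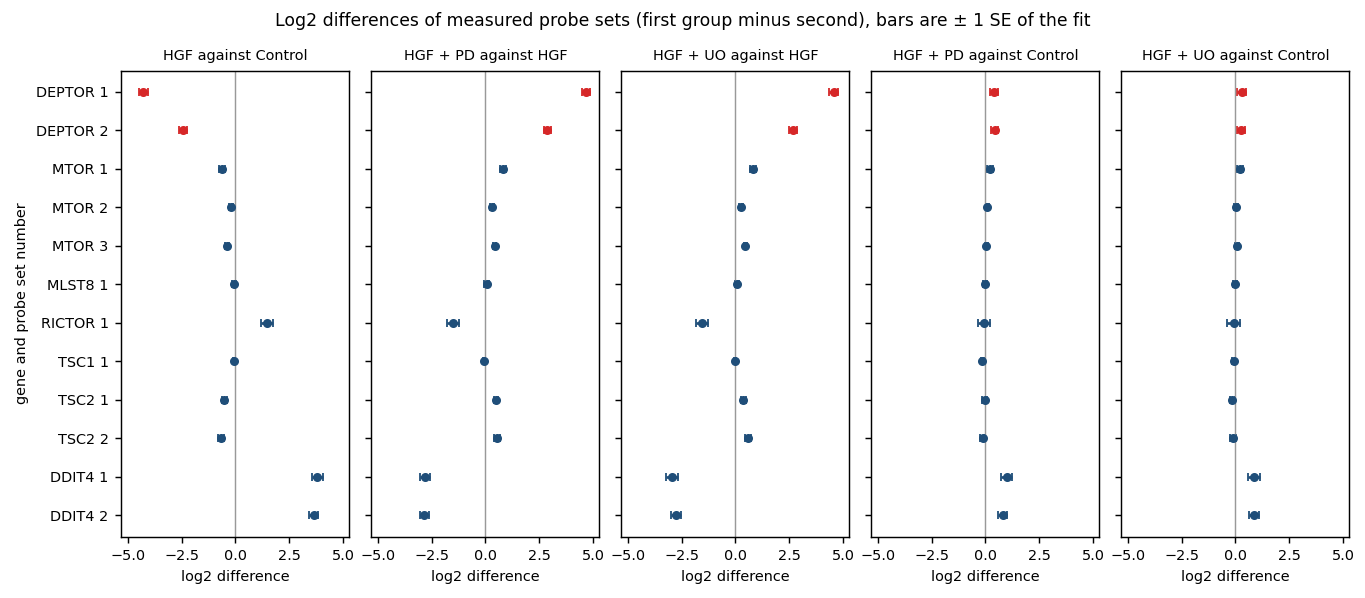
Log2 difference (horizontal axis, first group minus second) of each kept probe set in 5 comparisons, with bars of ± 1 SE of the fit and DEPTOR in red. DEPTOR and DDIT4 lie furthest from 0 and on opposite sides in each comparison with HGF, and in the 2 inhibitor groups against Control only DDIT4 among the tested members was called. RICTOR points rest on readings below the filter level outside the HGF group and are no measured size.

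Over the 10 kept probe sets of the 7 genes other than DEPTOR, 8 were called for HGF against Control, 3 higher and 5 lower, beside 55.6% of all probe sets tested (26.3% higher and 29.2% lower). PD against HGF called 8, 5 higher and 3 lower, beside 55.4% of all (30.3% higher and 25.1% lower). UO against HGF called 8 as well, 5 higher and 3 lower, beside 52.4% of all (27.2% higher and 25.2% lower). The 8 include RICTOR, whose selection fixed the difference, and several probe sets of the same gene, so they are not 8 separate genes. Against Control, 2 were called with PD beside 34.4% of all (20.2% higher and 14.3% lower), and 2 with UO beside 22.3% of all (11.9% higher and 10.3% lower), and these 2 are the DDIT4 probe sets. The median difference over the 10 was -0.15 for HGF against Control, 0.18 for PD against HGF and 0.16 for UO against HGF, beside -0.02, -0.01 and 0.01 over all probe sets. Arrays did not overlap for 7 of the 10 for HGF against Control, beside 51.7% of all probe sets. The same count was 8 for PD against HGF (55.6% of all), 7 for UO against HGF (54% of all), 1 for HGF + PD against Control (39.5% of all) and 2 for HGF + UO against Control (31.7% of all). RICTOR, kept only through HGF arrays, is among those without overlap in each comparison with HGF arrays, and it enters the medians too.

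**Figure D3:**
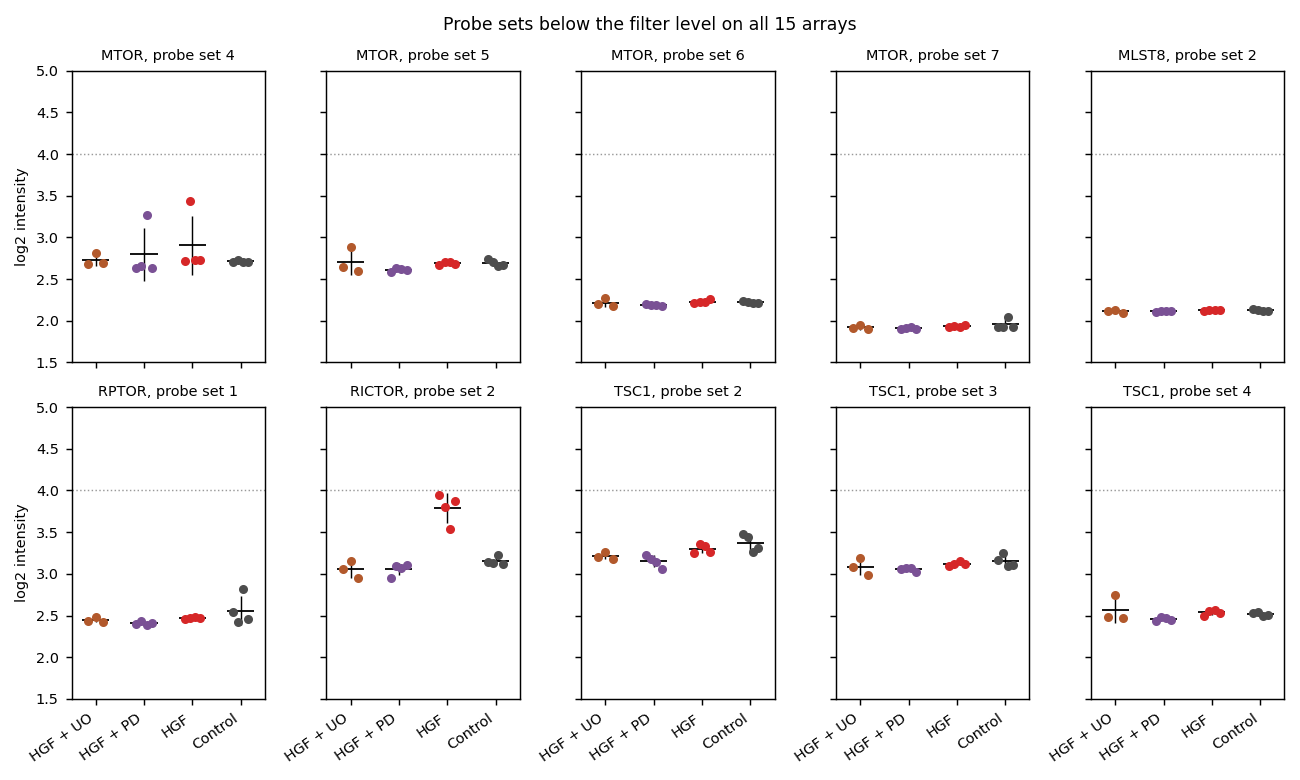
Log2 intensity of the 10 member probe sets that stayed below the filter level of 4 (dotted line) on all 15 arrays, drawn as in the plot of the kept probe sets. RPTOR lies between 2.39 and 2.81, and RICTOR probe set 2 is the member whose HGF arrays (3.53 to 3.95) stand above the others.

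Further genes of the pathway were taken from 9 lists with 129 genes, of which 113 were annotated on the array and 97 passed the filter. The lists were chosen with earlier results of these arrays known. Each gene is read on its brightest kept probe set. For HGF against Control 33 of the 97 were higher and 27 lower (61.9%), beside 55.7% of all 10287 genes (28% higher and 27.7% lower). For PD against HGF 26 were higher and 38 lower (66%), beside 55.7% (29.9% higher and 25.8% lower). For UO against HGF 22 were higher and 39 lower (62.9%), beside 52.5% (26.2% higher and 26.3% lower). Against Control 18 were higher and 25 lower with PD (44.3%), beside 35.3% of all genes (21.8% higher and 13.5% lower). With UO 7 were higher and 19 lower (26.8%), beside 24.1% (13.8% higher and 10.3% lower). The median differences of the 97 in the 3 comparisons with HGF arrays were 0.00, -0.05 and -0.08, beside -0.01, -0.02 and 0.00 over all genes.

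Among partners and assembly factors of the complexes, HGF against Control gave 1 of 6 higher and 3 lower, with a median of -0.22. These calls are 66.7% of the list, beside 55.7% of all genes. RUVBL1, an ATPase that works with the TTI1-TELO2 chaperone to assemble mTOR complexes, fell by 0.67 ± 0.08 with HGF (limma, adjusted p = 6.55e-06). It rose by 0.82 ± 0.09 with UO and 0.92 ± 0.08 with PD relative to HGF, while another RUVBL1 probe set was not called in any of these comparisons (-0.04 for HGF, adjusted p = 0.611). Its partner RUVBL2 rose by 0.31 ± 0.05 with HGF (limma, adjusted p = 0.000144) and differed from HGF by -0.03 ± 0.06 with UO and 0.12 ± 0.05 with PD, which did not pass. Other RUVBL2 probe sets differed from this, with 1 called lower for UO against HGF (-0.35, adjusted p = 0.0103) and 1 not called for HGF against Control (0.14, adjusted p = 0.194). AKT1S1 (PRAS40), an mTORC1 inhibitor released by AKT, fell by 0.34 ± 0.08 with HGF (limma, adjusted p = 0.00236). With UO it rose by 0.44 ± 0.09 relative to HGF, and with PD it read 0.07 ± 0.08 (adjusted p = 0.488).

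Of 25 genes of the lysosomal machinery that senses amino acids, 7 were higher and 7 lower for HGF. The counts were 8 and 8 for PD against HGF, and 5 and 8 for UO against HGF. These are 56%, 64% and 52% called, near the 55.7%, 55.7% and 52.5% of all genes. SEH1L, a subunit of GATOR2 and of the nuclear pore, rose by 1.29 ± 0.07 with HGF (limma, adjusted p = 1.04e-09) and fell by 1.15 ± 0.08 with UO and fell by 1.20 ± 0.07 with PD relative to HGF. FLCN, folliculin, which acts on the Rag GTPases, rose by 0.89 ± 0.07 (limma, adjusted p = 3.45e-08) and fell by 0.98 ± 0.07 with UO and 0.87 ± 0.07 with PD. Other FLCN probe sets read 0.46 (adjusted p = 0.0232) and 0.01 (adjusted p = 0.795) for HGF, and the second was not called with either inhibitor. LAMTOR2, a Ragulator subunit that anchors the Rag GTPases, fell by 0.71 ± 0.07 (limma, adjusted p = 3.09e-07). It rose by 0.98 ± 0.07 with UO and 1.05 ± 0.07 with PD relative to HGF.

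In the RHEB and AMPK arm 4 of 12 were higher and 3 lower for HGF. The counts were 5 and 5 for PD against HGF, and 3 and 6 for UO against HGF. In that order 58.3%, 83.3% and 75% were called, beside 55.7%, 55.7% and 52.5% of all genes. STK11 (LKB1), the kinase that activates AMPK, rose by 0.68 ± 0.05 with HGF (limma, adjusted p = 8.13e-08). It fell by 0.71 ± 0.06 with UO and 0.39 ± 0.05 with PD relative to HGF. CAB39 (MO25), its scaffold, rose by 0.34 ± 0.06 with HGF and fell by 0.61 ± 0.06 with UO and 0.80 ± 0.06 with PD. PRKAG1, a regulatory subunit of AMPK, rose by 0.45 ± 0.05 with HGF, and its differences from HGF were -0.27 ± 0.06 with UO and -0.12 ± 0.05 with PD, of which the second did not pass (adjusted p = 0.0742).

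Upstream of both complexes, the PI3K and AKT list had 4 of 12 higher and 3 lower with HGF. The counts were 2 and 5 for PD against HGF, and 1 and 4 for UO against HGF. That makes 58.3%, 58.3% and 41.7% called, beside 55.7%, 55.7% and 52.5% of all genes. PIK3CA, a catalytic subunit of PI3K, rose by 0.94 ± 0.10 with HGF (limma, adjusted p = 1.84e-06). It fell by 1.83 ± 0.11 with UO and 1.47 ± 0.10 with PD relative to HGF, to levels below Control by 0.90 ± 0.11 and 0.53 ± 0.10 (limma, adjusted p = 4.24e-05 and 0.001). PIK3R1, the regulatory subunit, fell by 0.75 ± 0.10 with HGF and rose by 0.86 ± 0.11 with UO and 1.07 ± 0.10 with PD, although another probe set was not called with PD (0.37, adjusted p = 0.127). AKT2 rose by 0.74 ± 0.08 with HGF and fell by 0.75 ± 0.09 with UO and 0.77 ± 0.08 with PD. It read 6.18 to 6.68 on HGF arrays and only 5.58 to 5.65 on all others. Whether those flat readings are the floor of the probe set was not tested.

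Of 5 measured ERK and RSK pathway kinases 4 rose with HGF and 0 fell, and 4 were lower with each inhibitor relative to HGF. The 80% called in each comparison stands beside 55.7% of all genes for HGF, 55.7% for PD and 52.5% for UO. The list medians were 0.57 for HGF, -0.86 for UO and -0.73 for PD. RPS6KA3 (RSK2), a kinase below ERK, rose by 0.77 ± 0.11 (limma, adjusted p = 2.53e-05) and fell by 0.95 ± 0.12 with UO and 1.07 ± 0.11 with PD. BRAF rose by 0.57 ± 0.16 with HGF, with overlapping arrays, and fell by 1.09 ± 0.17 with UO and 1.18 ± 0.16 with PD. MAP2K1 (MEK1), the protein that the compounds inhibit, rose by 0.42 ± 0.04 at the RNA level and fell by 0.55 ± 0.04 with UO and 0.48 ± 0.04 with PD. Other MAP2K1 probe sets read 0.00 and 0.16 for HGF, and neither passed (adjusted p = 0.987 and 0.315). The first of these was not called with either inhibitor relative to HGF.

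**Figure D4:**
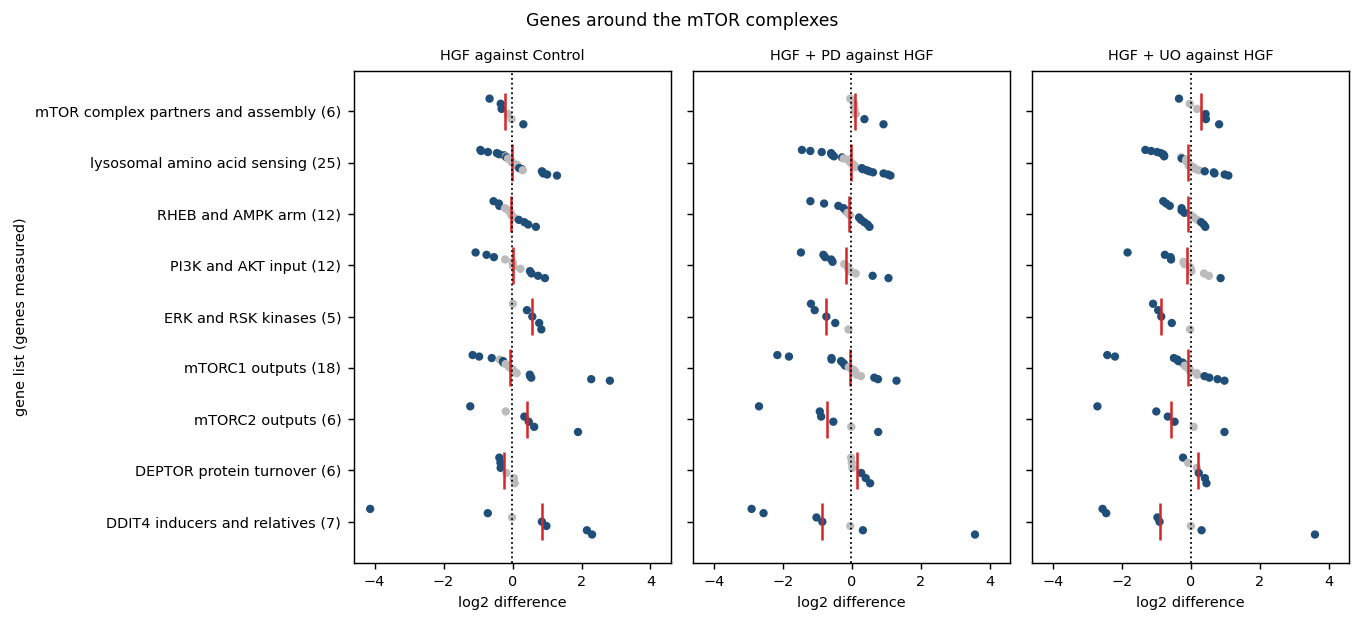
Log2 difference (horizontal axis) of the measured genes of 9 lists in 3 comparisons, with 1 point per gene (blue where called, grey where not), a red bar at the list median and a dotted line at the median of all genes. The ERK and RSK kinases have a median of 0.57 for HGF against Control and -0.86 for UO against HGF, while the lysosomal list is centred near 0 in all 3.

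Among outputs of mTORC1 5 of 18 were higher and 5 lower with HGF. The counts were 3 and 8 for PD against HGF, and 4 and 7 for UO against HGF. Called shares were thus 55.6%, 61.1% and 61.1%, beside 55.7%, 55.7% and 52.5% of all genes. These are RNA levels of mTORC1 targets, and the activity of mTORC1 was not measured. EIF4EBP1 (4E-BP1), the repressor of cap-dependent translation that mTORC1 phosphorylates, rose by 2.82 ± 0.08 with HGF (limma, adjusted p = 1.36e-12). Relative to HGF it fell by 2.42 ± 0.09 with UO and 2.16 ± 0.08 with PD, and it remained above Control by 0.40 ± 0.09 and 0.67 ± 0.08 (limma, adjusted p = 0.00362 and 1.8e-05). LPIN1, a phosphatidate phosphatase that mTORC1 keeps out of the nucleus, rose by 2.28 ± 0.13 with HGF and fell by 2.20 ± 0.15 with UO and 1.82 ± 0.13 with PD. PDCD4, a translation inhibitor degraded after S6 kinase phosphorylates it, fell by 0.97 ± 0.03 with HGF and rose by 0.40 ± 0.04 with UO and 0.66 ± 0.03 with PD. It stayed below Control by 0.57 ± 0.04 and 0.31 ± 0.03 (limma, adjusted p = 1.42e-07 and 9.65e-06).

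Among kinases and substrates below mTORC2 4 of 6 were higher and 1 lower with HGF. With each inhibitor 1 was higher and 4 lower relative to HGF. Each comparison called 83.3%, beside 55.7% of all genes for HGF, 55.7% for PD and 52.5% for UO. Here too only RNA was read, and the activity of mTORC2 was not measured. NDRG1, a substrate of SGK1, rose by 1.90 ± 0.11 with HGF (limma, adjusted p = 1.64e-09) and fell by 2.71 ± 0.12 with UO and 2.69 ± 0.11 with PD. FOXO1, a transcription factor that AKT excludes from the nucleus, rose by 0.63 ± 0.09 and fell by 1.00 ± 0.10 with UO and 0.92 ± 0.09 with PD. SGK1 itself, a kinase activated by mTORC2 that controls sodium transport in the tubule, went the other way. It fell by 1.23 ± 0.11 with HGF (limma, adjusted p = 2.33e-07) and rose by 0.98 ± 0.12 with UO and 0.77 ± 0.11 with PD. With PD 5 of the 6 were below Control and 0 above, beside 13.5% of all genes lower, and with UO 2 were below, beside 10.3%.

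A further list holds genes that control DEPTOR protein turnover. The ubiquitin ligase that marks DEPTOR consists of SKP1, CUL1, RBX1 and an F-box protein, BTRC or FBXW11, and OTUB1 is a deubiquitinase that stabilises DEPTOR. Of 6 measured, 0 were higher and 3 lower with HGF. For PD against HGF 3 were higher and 0 lower, and for UO against HGF 3 higher and 1 lower. These shares of 50%, 50% and 66.7% stand beside 55.7%, 55.7% and 52.5% of all genes. SKP1 fell by 0.38 ± 0.03 with HGF (limma, adjusted p = 2.83e-08), and OTUB1 by 0.35 ± 0.08 (limma, adjusted p = 0.00234). They rose by 0.45 ± 0.03 and 0.41 ± 0.09 with UO, and by 0.54 ± 0.03 and 0.41 ± 0.08 with PD. FBXW11 has no settled direction with the inhibitors. Its brightest probe set differed by -0.35 ± 0.05 for HGF against Control, 0.23 ± 0.06 for UO against HGF and 0.28 ± 0.05 for PD against HGF, all called. The other 3 read -0.05, -0.01 and 0.00 for UO against HGF (adjusted p = 0.781, 0.981 and 0.987). For PD against HGF they read -0.71 and -0.50, both called lower, and -0.27 (adjusted p = 0.152). BTRC read 0.04 with HGF, -0.08 with UO and 0.02 with PD and was not called.

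Of 7 measured genes that induce DDIT4 or act beside it, 4 were higher and 2 lower with HGF. With each inhibitor 2 were higher and 4 lower relative to HGF. This is 85.7% called each time, beside 55.7% of all genes for HGF, 55.7% for PD and 52.5% for UO. ATF4, the stress transcription factor, rose by 0.85 ± 0.04 with HGF and fell by 0.91 ± 0.04 with UO and 0.85 ± 0.04 with PD, with no call against Control (limma, adjusted p = 0.384 with UO and 0.992 with PD). NR3C1, the glucocorticoid receptor, rose by 2.16 ± 0.16 with HGF (limma, adjusted p = 2.65e-08) and fell by 2.56 ± 0.17 with UO and 2.90 ± 0.16 with PD. HIF1A, the hypoxia factor, fell by 0.72 with HGF and rose by 0.31 with UO and 0.33 with PD. TXNIP, an arrestin that limits glucose uptake and binds DDIT4, fell by 4.13 ± 0.11 with HGF (limma, adjusted p = 9.34e-13) and rose by 3.60 ± 0.12 with UO and 3.58 ± 0.11 with PD. The levels of TXNIP were 10.02 to 10.74 on HGF arrays and 14.41 to 14.53 on Control arrays, and it stayed below Control by 0.53 ± 0.12 with UO and 0.55 ± 0.11 with PD.

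The genes whose pattern over the 15 arrays was most like DEPTOR probe set 1 were ranked by Pearson r, as a description, over 10280 genes. The arrays fall into the HGF group and the rest, so r mainly records that split, and 437 genes had r above 0.95. The highest were HACD3 (0.993), PKIG (0.993), PBDC1 (0.993), DHRS1 (0.992), DYNC2LI1 (0.992), PEX19 (0.991), TEX26 (0.991) and CFAP206 (0.991). HACD3 averaged 6.85 ± 0.28 on HGF and 8.78 ± 0.13 on Control arrays. TEX26 averaged 3.00 ± 0.02 on HGF, below the filter, and 8.96 ± 0.21 on Control arrays. DYNC2LI1, a light intermediate chain of the dynein of cilia, averaged 9.00 ± 0.07 on HGF and 10.77 ± 0.06 on Control arrays. The most negative were ABCB4 (-0.995), TNFAIP8 (-0.993), TFPI2 (-0.992) and RGS17 (-0.991). TNFAIP8 and TFPI2 lay below the filter on every array outside the HGF group. They were kept only through the HGF arrays, so a difference was built into their selection. ABCB4, a phospholipid transporter, averaged 10.37 ± 0.18 on HGF and 6.44 ± 0.12 on Control arrays. Ranked by Spearman's rho, 1 of the 8 most like and 0 of the 4 most opposite genes were the same.

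**Figure D5:**
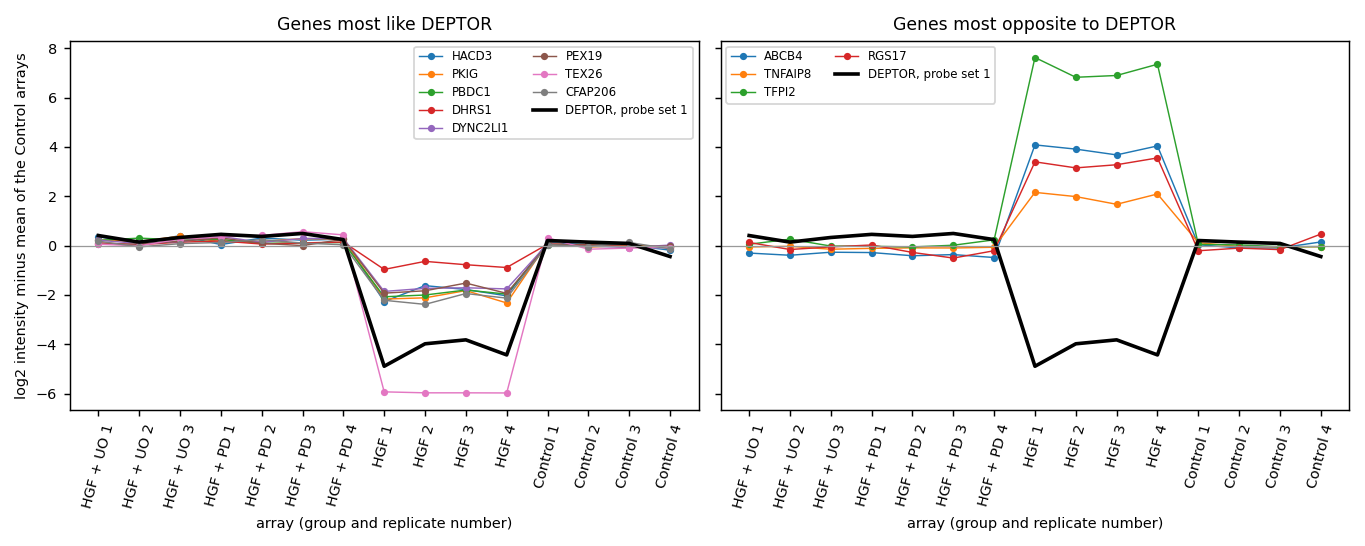
Log2 intensity of each array minus the mean of the Control arrays (vertical axis) for DEPTOR probe set 1 (black) and for the 8 genes most like it (left) and the 4 most opposite (right). All lines separate the 4 HGF arrays from the other 11, with DHRS1 (9.17 on HGF and 9.98 on Control arrays on average) the shallowest and TEX26 the deepest on the left.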

How the data were processed

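Total RNA from 15 MDCK samples was labelled with biotin and hybridised to canine Affymetrix arrays, 1 per sample. The deposited values are linear intensities that the authors summarised with GCRMA, per the submitters' processing notes. Its version, the scan dates and the slides are not given in the sources used here. Intensities ran from 1.97 to 104385. Log2 was taken with no further scaling, and 111 control probe sets were left out. Of the rest, 24904 (58%) were kept, and 18490 of these had 1 symbol in the platform annotation. Updating symbols through the Entrez identifier against RefSeq changed 0. Groups came from the sample titles. One limma 3.58.1 model (R 4.3.3; lmFit, eBayes with variance trend, two-sided) was fitted to all 15 arrays and tested on simulated data. The number of arrays limits the precision, and p-values measure the spread between arrays called biological replicates. The members and lists were chosen with earlier results of these data known. The text names all members, the 3 genes of each list with the lowest adjusted p over the 3 comparisons with HGF arrays, and the genes most like or opposite to DEPTOR. BTRC, HIF1A and examples among the genes most like DEPTOR were added after their values were seen. Alternatives were array medians, quantile normalization, filters, an offset, no trend, fewer groups, a replicate block and leaving out each array. No arrays were identical.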

Additional observations from a re-analysis of the deposited data

How the results depend on the processing

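No called member difference and no DEPTOR difference changed sign under any alternative run, whereas some uncalled ones near 0 did, in MLST8, MTOR probe set 2, RICTOR, TSC1 and TSC2. Of 470 member differences under settings that keep all arrays, 451 stayed on their side of the threshold (for DEPTOR, moved by under 1 SD), 11 lost a call, 2 gained one and 6 moved. The 6 are DEPTOR differences with 16 added before the log, where probe set 1 read -3.66 for HGF against Control, 4.04 for PD and 3.95 for UO against HGF, and probe set 2 read -2.00, 2.40 and 2.22. The calls lost were MTOR probe set 2 (adjusted p from 0.0527 to 0.0764), DDIT4 probe set 1 for HGF + UO against Control without a filter (0.0582) and TSC2 probe set 1 for UO against HGF in the fit of those groups alone (0.0532), and the call gained was TSC1 for HGF + PD against Control. Leaving out 1 array gave 29 losses and 4 gains over 900 differences. The count of called member probe sets for HGF + UO against Control was 1 without a filter, and 1 to 2 when an array was left out. The counts for pathway genes moved by less than 1.5 times. No clear pairing by replicate number was seen. Of 21 same-numbered pairs, 8 had a correlation of deviations over 0.1 (range of the 21, -0.25 to 0.41), and 5 of 15 arrays correlated best with their own number. Pairs with different numbers ran from -0.49 to 0.40. With 3 or 4 arrays per group this check cannot exclude a pairing. With the replicate block, 13924 probe sets were called for HGF against Control (13839 without), 13850 for PD and 12919 for UO against HGF, and MTOR probe set 2 did not pass for HGF against Control (adjusted p = 0.0764) or UO against HGF (adjusted p = 0.0742). By Spearman's rho 1 of 8 genes most like DEPTOR was shared. The cause of these shifts was not tested. Readings near the filter level, those of DEPTOR on HGF arrays and of RICTOR, may be limited by the background estimate, which was not tested.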
